A study of Rattus norvegicus with 48 samples.

Results

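The REV-ERB receptors are encoded by a pair of paralogous genes, Nr1d1 (ENSRNOG00000009329, REV-ERB alpha) and Nr1d2 (ENSRNOG00000046912, REV-ERB beta). These 2 of the 32883 genes in the count files were chosen by their identifiers and followed through left ventricular tissue of Sprague Dawley rats. The question was whether the paralogs responded alike to methamphetamine at day 11 and after abstinence. The study was designed to compare male and female hearts for drug-related changes in transcript levels, with and without a drug-free period.

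Rats aged 8 weeks received 1 subcutaneous injection each morning, for 10 consecutive days, of methamphetamine at 5 mg/kg/day or of saline. In the day 11 groups, hearts were taken 24 h after the last injection. In the abstinence groups, hearts were taken 30 days after it, so these rats were also older. Each combination of labelled sex (F or M), treatment and time point formed a group, 8 groups in all, and each library came from 1 heart. Of 48 labelled samples, 47 libraries were analysed here: F saline at day 11 had 5 libraries, with replicate 3 not analysed here, and each other group had 6. Hearts of all groups were taken within the same part of the morning, according to the methods. Each rat gave 1 heart at that hour alone, so a change in the level of a daily rhythm and a change in its timing cannot be told apart.

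Total counts ran from 6661581 to 11314050 reads per library, and the time points were sequenced as separate pools. The labelled sex was checked with 4 genes read only in males and 2 genes far higher in females. All 8 libraries whose titles end in 5 carried the genes of the other sex. The summed male genes stood at 85.8 to 115% of the male level in the 4 female replicates 5, and at 7.31 to 12.1% in the 4 male replicates 5, against 0 to 2.52% in the other 19 female libraries and 70.9 to 116% in the other 20 male libraries. Replicate 5 is therefore given apart throughout. Tests used the other 39 libraries (n = 5 per group, n = 4 for F saline at day 11), and values of the receptors and of the pathway genes that lost a call, with all 47 libraries as labelled stand beside them.

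REV-ERB receptors are heme-binding nuclear receptors that repress transcription. They bind the AGGTCA element with an A/T-rich flank, which they share with the activating ROR receptors, and recruit the corepressor NCoR with histone deacetylase 3. Their best known target is Bmal1 (named Arntl in the gene lists here), the partner of CLOCK or NPAS2; these activators in turn drive both Rev-erb genes through E-boxes, and PER and CRY proteins oppose them. DBP and TEF activate and NFIL3 represses through D-boxes. In the heart the receptors take part in the daily timing of metabolic genes.

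The starts of both genes are shown because their paralogous transcripts did not move in parallel, with the start of Bmal1, on which the receptors act. Sequences are from RefSeq on build GRCr8, whereas the counts were made on Rnor_6.0. Each runs 5′ to 3′ from 250 bases before to 50 bases after the annotated start on the gene's own strand. The first Nr1d1 start lies at chr10:84231763-84232062 (minus strand) and the second at chr10:84229405-84229704 (minus strand), Nr1d2 at chr15:9954784-9955083 (plus strand) and Bmal1 at chr1:176766078-176766377 (plus strand). Capitals mark matches to the motifs searched.
Nr1d1, first start: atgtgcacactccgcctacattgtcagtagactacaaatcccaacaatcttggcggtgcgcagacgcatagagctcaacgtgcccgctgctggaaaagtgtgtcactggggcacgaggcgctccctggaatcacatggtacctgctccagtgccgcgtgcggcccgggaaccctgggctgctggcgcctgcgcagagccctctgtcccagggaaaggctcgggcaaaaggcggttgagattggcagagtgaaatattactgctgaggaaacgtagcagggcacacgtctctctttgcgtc
Nr1d1, second start: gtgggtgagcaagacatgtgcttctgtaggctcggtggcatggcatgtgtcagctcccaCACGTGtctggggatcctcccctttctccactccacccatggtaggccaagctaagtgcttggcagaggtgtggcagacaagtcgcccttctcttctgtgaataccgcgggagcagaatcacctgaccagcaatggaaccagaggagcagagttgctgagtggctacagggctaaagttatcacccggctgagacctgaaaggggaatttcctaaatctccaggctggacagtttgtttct
Nr1d2: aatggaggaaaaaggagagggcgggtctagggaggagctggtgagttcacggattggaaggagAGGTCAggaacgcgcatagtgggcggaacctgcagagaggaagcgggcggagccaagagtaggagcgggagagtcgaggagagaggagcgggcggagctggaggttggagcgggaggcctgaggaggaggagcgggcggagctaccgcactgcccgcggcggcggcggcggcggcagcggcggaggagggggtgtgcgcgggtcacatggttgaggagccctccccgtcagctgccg
Bmal1: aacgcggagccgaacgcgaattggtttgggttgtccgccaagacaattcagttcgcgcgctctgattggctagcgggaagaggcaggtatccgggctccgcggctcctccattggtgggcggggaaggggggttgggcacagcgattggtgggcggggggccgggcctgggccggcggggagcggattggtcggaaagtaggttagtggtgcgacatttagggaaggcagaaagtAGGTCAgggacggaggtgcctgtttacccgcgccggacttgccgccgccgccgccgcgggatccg

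Both strands were searched for the E-box CACGTG, the D-box TTANGTAA, the cAMP response element TGACGTCA and a glucocorticoid response element. AGGTCA, the core of the REV-ERB and ROR element, was searched without its A/T-rich flank. The second Nr1d1 start held 1 E-box, 191 bases before the start. The Nr1d2 window held 1 AGGTCA, 187 bases before the start, and the Bmal1 window held 1 AGGTCA, 15 bases before it. The first Nr1d1 start held none of these letters. Over 33469 promoter windows of the same length, 6.42% held the E-box, 16.2% AGGTCA, 2.24% the D-box, 1.83% the cAMP response element and 0.0329% the glucocorticoid response element, so AGGTCA in particular is common. A match of letters is a description, not a bound site.

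Nr1d1 overlaps the 3′ end of Thra, the thyroid hormone receptor alpha gene, on the opposite strand in the RefSeq annotation of GRCr8. The library kit was a stranded one, but whether the counting used strand is not given in the sources used here. How reads in the shared stretch were counted is therefore unknown, and Thra is given beside Nr1d1 below. Nr1d1 had 160 to 1617 reads and Nr1d2 had 304 to 1986 reads per library, and both passed the filter on low counts in every comparison. Levels are given as reads per 1000000 total counts (CPM), which is not corrected for transcript length. The levels of the paralogs are therefore not compared with each other; only their ratio is compared between groups.

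In females at day 11 both receptors were higher after methamphetamine, and Nr1d2 more so than Nr1d1. Nr1d1 stood at 28.8, 29.7, 25.7 and 47.0 CPM in the 4 saline hearts. It stood at 87.2, 82.9, 83.1, 55.7 and 91.6 CPM in the 5 methamphetamine hearts. All 5 treated hearts lay above all 4 saline hearts, although replicate 4 of the treated group, at 55.7 CPM, sat closer to the highest saline heart than to its own group. Nr1d2 stood at 33.6, 43.7, 37.6 and 62.2 CPM after saline, and at 153.8, 161.4, 174.4, 134.9 and 180.3 CPM after methamphetamine. The lowest treated heart, at 134.9 CPM, lay far above the highest saline heart, at 62.2 CPM. The groups did not overlap for both receptors, which held for 9.78% of the 13986 genes tested.

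Nr1d1 rose by 1.29 ± 0.17 (log2 fold change ± SE) with an adjusted p of 0.0001766, and Nr1d2 rose by 1.87 ± 0.14 with an adjusted p of 1.089e-06 (edgeR quasi-likelihood test, Benjamini-Hochberg over all genes tested). Both receptors were called at an adjusted p under 0.1, as were 9.43% of all genes tested. The replicate 5 libraries went the other way from their labels: the saline one had 52.1 CPM of Nr1d1 and 84.8 CPM of Nr1d2, the methamphetamine one 37.1 and 60.7 CPM. With them included, Nr1d1 rose by 0.99 ± 0.23 (adjusted p = 0.0316) and Nr1d2 by 1.46 ± 0.26 (adjusted p = 0.01038) in edgeR, where 4.18% of genes were called. In bulk tissue, fewer cells of a type and less RNA per cell cannot be told apart.

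Thra fell at the same comparison, by 0.64 ± 0.07 on the log2 scale (edgeR, adjusted p = 1.982e-05). Its levels were 123.6 to 133.1 CPM after saline and 71.1 to 91.7 CPM after methamphetamine, in the opposite direction to Nr1d1. The only atrial marker that could be matched to an identifier, Myl4 (the atrial light chain of myosin), also differed: it stood at 92.1, 38.3, 14.4 and 5.96 CPM in the saline hearts and from 2.998 to 5.67 CPM in the treated hearts (log2 fold change -3.18 ± 0.60, edgeR adjusted p = 0.004194). Its part in the receptor result was not tested. Both receptors kept their calls without each of the 4 saline libraries in turn, and so did Myl4 (edgeR, adjusted p from 0.0002962 to 0.007935). These fits therefore did not test the part of Myl4 either. The leukocyte marker Ptprc did not follow the groups, at 19.3 to 22.4 CPM and 18.0 to 23.7 CPM.

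In males at day 11 the receptors parted: the Nr1d1 fold change was below and the Nr1d2 fold change above 0, and neither passed the test. Nr1d1 stood at 72.1, 71.9, 85.1, 100.8 and 143.6 CPM after saline, and at 40.0, 26.6, 108.8, 86.3 and 85.3 CPM after methamphetamine. The treated group was split, with replicates 1 and 2 below every saline heart and the other 3 inside the saline range. By the rat numbers in the titles, these 2 rats were neighbours and stood apart from the run of numbers of the other 3. Nr1d2 stood at 80.6, 94.4, 92.4, 111.9 and 132.2 CPM after saline, and at 122.4, 104.9, 138.8, 138.7 and 135.9 CPM after methamphetamine. The split was not seen in Nr1d2 to the same degree: replicates 1 and 2 were the lowest of the treated group but lay above 3 or 4 of the 5 saline hearts.

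The log2 fold change was -0.45 ± 0.31 for Nr1d1 (edgeR, adjusted p = 0.3942) and 0.33 ± 0.11 for Nr1d2 (adjusted p = 0.1157). Neither receptor was called, where 6.54% of 13887 genes were, and both overlapped between the groups, whereas 7.17% of genes did not. Nr1d2 lay close to the threshold: its adjusted p was 0.0693 in DESeq2, and 0.07793 in edgeR without M saline replicate 6. Replicate 5 had 149.9 CPM of Nr1d1 and 152.5 CPM of Nr1d2 under the saline label, against 53.7 and 80.4 CPM under the methamphetamine label. With all libraries as labelled the fold changes were -0.64 ± 0.28 (adjusted p = 0.3262) and 0.12 ± 0.15 (adjusted p = 0.7065), and edgeR called 0% of genes (0 of 13753, 2020 at an unadjusted p under 0.05, and 163 genes in DESeq2 on the same libraries). Thra was at 83.4 to 122 CPM after saline and 83.8 to 102 CPM after methamphetamine. All saline males at day 11 came from a lower series of rat numbers and all treated males from a higher one, so treatment and number series cannot be told apart there.

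**Figure D1:**
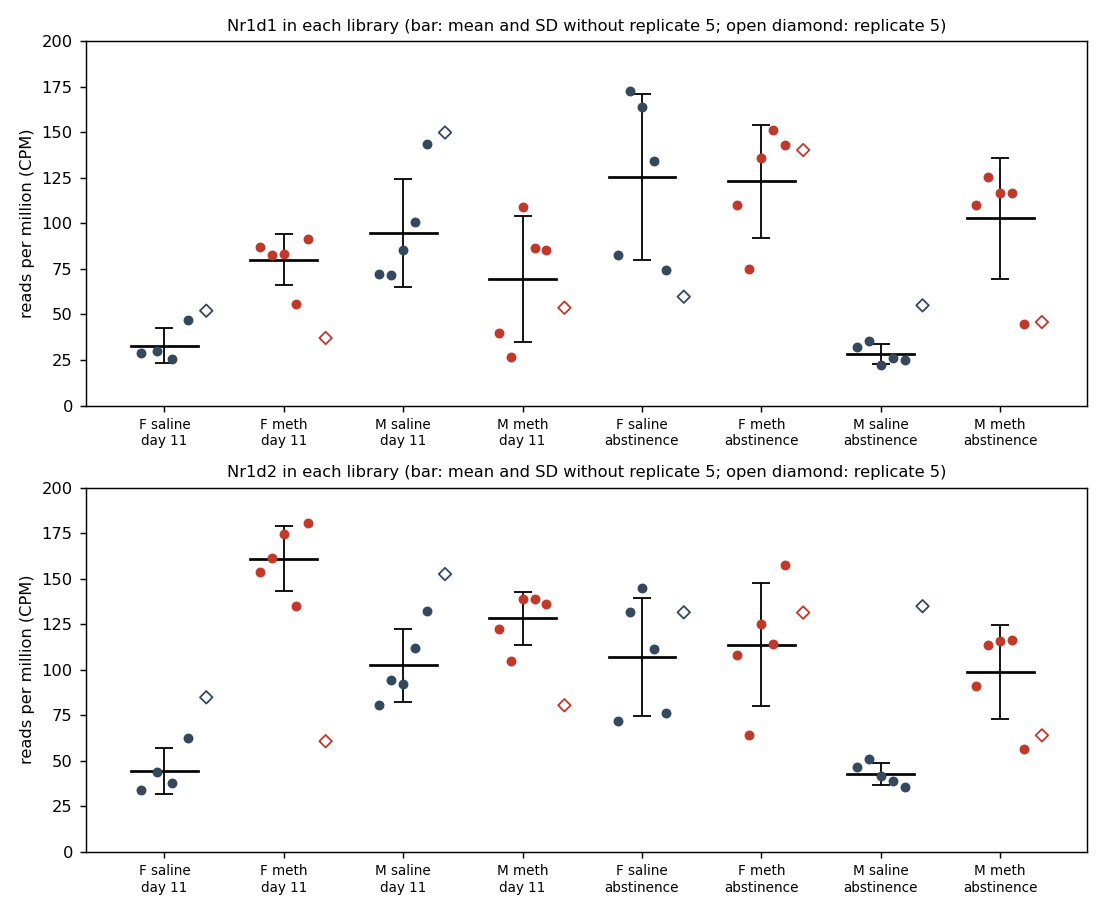
CPM of Nr1d1 (top) and Nr1d2 (bottom) in each of 47 libraries by group, saline in grey and methamphetamine in red, with the mean and SD of the libraries other than replicate 5 as bars and replicate 5 as open diamonds. For both genes the saline females at day 11 and the saline males after abstinence form the lowest groups, at mean levels of 32.8 and 28.2 CPM for Nr1d1 and 44.3 and 42.7 CPM for Nr1d2.

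After 30 days of abstinence the female groups overlapped for both receptors. By rat number, with replicate 5 counted, the methamphetamine group held 3 rats of the lower and 3 of the higher series. The saline group held 1 and 5. Nr1d1 stood at 82.5, 172.7, 164.1, 134.3 and 74.3 CPM after saline and at 110.1, 75.2, 135.9, 151.5 and 142.9 CPM after methamphetamine. Nr1d2 stood at 72.1, 131.5, 144.7, 111.2 and 76.4 CPM after saline and at 107.9, 63.9, 125.1, 113.9 and 157.6 CPM after methamphetamine. Each group held hearts at both ends of the range, and a heart low in 1 receptor was low in the other: saline replicates 1 and 6 and methamphetamine replicate 2 were the lowest of their groups for both. The log2 fold changes were -0.08 ± 0.23 for Nr1d1 (edgeR, adjusted p = 0.9947) and 0.04 ± 0.22 for Nr1d2 (adjusted p = 0.9967).

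In that comparison edgeR called 0% of 13610 genes (541 at an unadjusted p under 0.05, 20 genes called in DESeq2), and 0.5% of genes did not overlap between the groups. With all libraries as labelled the fold changes were 0.09 ± 0.23 and 0.02 ± 0.19, with 0% of 13545 genes called (523 at an unadjusted p under 0.05, 26 genes in DESeq2). Replicate 5 had 59.7 CPM of Nr1d1 and 131.5 CPM of Nr1d2 after saline, and 140.3 and 131.4 CPM after methamphetamine. The leukocyte marker Ptprc was at 19.1 to 24.1 CPM after saline and 19.4 to 76.4 CPM after methamphetamine, and Myl4 at 1.93 to 4.46 and 2.15 to 35.5 CPM; their part in these values was not tested.

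After abstinence both receptors were higher in methamphetamine males than in saline males, and here the fold change was larger for Nr1d1 than for Nr1d2. Nr1d1 stood at 32.0, 35.7, 22.0, 26.3 and 25.0 CPM after saline, and at 109.9, 125.7, 116.7, 117.0 and 44.5 CPM after methamphetamine. Nr1d2 stood at 46.3, 51.1, 41.8, 38.8 and 35.6 CPM after saline, and at 90.9, 113.7, 115.8, 116.4 and 56.3 CPM after methamphetamine. The groups did not overlap for either receptor, as for 1.31% of genes. Methamphetamine replicate 6 was far below the other 4 treated hearts for both receptors and only just above the saline hearts.

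The log2 fold change was 1.86 ± 0.23 for Nr1d1 (edgeR, adjusted p = 0.005212) and 1.21 ± 0.17 for Nr1d2 (adjusted p = 0.01851). Both were among the 14 of 13621 genes called, or 0.103%. Without M saline replicate 4 the Nr1d2 value was 1.17 with an adjusted p of 0.1185. Replicate 5 ran against its labels, with 55.0 CPM of Nr1d1 and 134.9 CPM of Nr1d2 after saline and 45.8 and 63.9 CPM after methamphetamine. With it included, the edgeR fold changes were 1.51 ± 0.28 (adjusted p = 0.2396) and 0.67 ± 0.29 (adjusted p = 0.9994). In that fit edgeR called 0% of 13606 genes (652 at an unadjusted p under 0.05, 23 genes in DESeq2). Nr1d1 was still called by DESeq2 on these libraries, and Nr1d2 was not. Thra was at 104 to 125 CPM and 107 to 120 CPM, Myl4 at 0.888 to 3.98 and 0.753 to 4.21 CPM, and Ptprc at 21.4 to 36.4 and 22.5 to 28.3 CPM, all overlapping between the groups.

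Whether these responses differed between the sexes, or between the time points, was tested as an interaction. Wherever the male effect at day 11 enters, treatment and rat number series cannot be told apart. At day 11 the effect in females exceeded that in males by 1.73 ± 0.40 on the log2 scale for Nr1d1 (edgeR, adjusted p = 0.05518) and by 1.53 ± 0.20 for Nr1d2 (adjusted p = 0.0002837). Both were called, with 0.795% of 14343 genes. The difference was thus of like size for the paralogs, although the effect itself lay on either side of 0 in males. The Nr1d1 call was lost in edgeR without F methamphetamine replicate 1 (1.70, adjusted p = 0.1074), F saline replicate 1 (1.68, adjusted p = 0.1582), F saline replicate 4 (1.63, adjusted p = 0.1569) or M saline replicate 6 (1.56, adjusted p = 0.1038). With all libraries as labelled the differences were 1.62 ± 0.41 (adjusted p = 0.2193) and 1.33 ± 0.33 (adjusted p = 0.2075), with 0.119% of genes called.

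After abstinence the effect in females minus that in males was -1.94 ± 0.35 for Nr1d1 (edgeR, adjusted p = 0.2162) and -1.17 ± 0.30 for Nr1d2 (adjusted p = 0.4282). Neither passed, and edgeR called 0% of 14020 genes (738 at an unadjusted p under 0.05, 30 genes in DESeq2). For Nr1d1 the call depended on the tool and on 1 library: the adjusted p was 0.000657 in DESeq2, 0.003877 in edgeR without M methamphetamine replicate 6 (value -2.14) and 0.06365 without F saline replicate 6 (value -2.08). With all libraries as labelled the differences were -1.43 ± 0.39 and -0.66 ± 0.38, with 0% of 13972 genes called (632 at an unadjusted p under 0.05, 0 in DESeq2).

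Within females the effect at day 11 exceeded that after abstinence by 1.36 ± 0.32 for Nr1d1 (edgeR, adjusted p = 0.04839) and by 1.83 ± 0.30 for Nr1d2 (adjusted p = 0.004427). Both were called, with 1.23% of 14179 genes. The Nr1d1 call was lost without F saline day 11 replicates 1 (1.31, adjusted p = 0.1176), 2 (1.33, adjusted p = 0.11) or 4 (1.26, adjusted p = 0.1231), or without F saline abstinence replicate 2 (1.24, adjusted p = 0.1029). As labelled, the differences were 0.91 ± 0.35 (adjusted p = 0.3974) and 1.45 ± 0.35 (adjusted p = 0.1187), with 0.233% of genes called.

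Within males the effect at day 11 was below that after abstinence, by -2.32 ± 0.42 for Nr1d1 (edgeR, adjusted p = 0.02785) and by -0.88 ± 0.22 for Nr1d2 (adjusted p = 0.09413), with 0.618% of 14081 genes called. For Nr1d1 the call held without each library in turn, at adjusted p of 0.006641 to 0.06309. For Nr1d2 it was lost in 16 of 20 such fits, at values of -0.91 to -0.79, the largest adjusted p being 0.2227. As labelled, the differences were -2.15 ± 0.43 (adjusted p = 0.06404) and -0.55 ± 0.36 (adjusted p = 0.5944), with 0.149% of genes called.

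**Figure D2:**
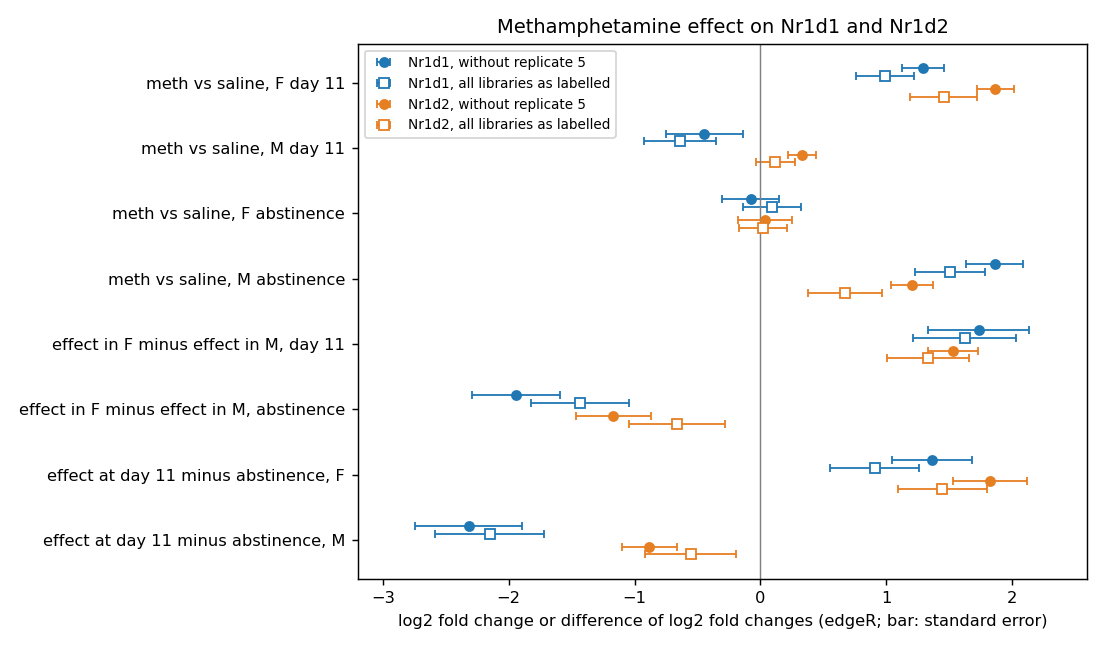
Log2 fold change of methamphetamine against saline in 4 comparisons and the difference between 2 such fold changes in 4 more, with its standard error, for Nr1d1 (blue) and Nr1d2 (orange), without replicate 5 (filled circles) and with all libraries as labelled (open squares). Nr1d2 had the larger rise in F day 11 (1.87 against 1.29) and Nr1d1 in M abstinence (1.86 against 1.21).

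The control levels themselves moved between the time points, in opposite directions in the sexes. From day 11 to abstinence the saline females rose in Nr1d1 from 25.7 to 47.0 CPM up to 74.3 to 172.7 CPM, and in Nr1d2 from 33.6 to 62.2 CPM up to 72.1 to 144.7 CPM. The saline males fell in Nr1d1 from 71.9 to 143.6 CPM down to 22.0 to 35.7 CPM, and in Nr1d2 from 80.6 to 132.2 CPM down to 35.6 to 51.1 CPM. In neither sex did the time points overlap, for either receptor, which held for 6.66% of genes in females and 4.34% in males.

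In saline females the log2 change was 2.00 ± 0.25 for Nr1d1 (edgeR, adjusted p = 0.004191) and 1.35 ± 0.21 for Nr1d2 (adjusted p = 0.01412), with 2.39% of genes called. In saline males it was -1.71 ± 0.18 for Nr1d1 and -1.23 ± 0.12 for Nr1d2, both with an edgeR adjusted p of 0.0006047, and 1.47% of genes called. As labelled, the female values were 1.71 ± 0.27 (adjusted p = 0.01951) and 1.15 ± 0.24 (adjusted p = 0.05029) with 1.2% called, and the male values -1.64 ± 0.23 (adjusted p = 0.01523) and -0.90 ± 0.28 (adjusted p = 0.4122) with 0.0877% called. The difference between the sexes was not tested. Age, sequencing pool and, in males, the series of rat numbers changed together with the time point and cannot be told apart from it. These saline groups are also the controls of the comparisons above, which share them.

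Ordered by mean, Nr1d1 ran from saline males after abstinence (28.2 ± 5.6 CPM, SD, n = 5) and saline females at day 11 (32.8 ± 9.6, n = 4) to methamphetamine males (69.4 ± 34.6, n = 5), methamphetamine females (80.1 ± 14.1, n = 5) and saline males (94.7 ± 29.8, n = 5) at day 11, and then to methamphetamine males (102.8 ± 33.0, n = 5), methamphetamine females (123.1 ± 31.0, n = 5) and saline females (125.6 ± 45.5, n = 5) after abstinence. Only the step from saline females to methamphetamine males at day 11, from 32.8 to 69.4 CPM, exceeded the larger SD of the neighbours, and no neighbouring groups had separate ranges. Nr1d2 began with the same groups, at 42.7 ± 6.1 CPM and 44.3 ± 12.7 CPM. It continued from 98.6 ± 25.9 CPM in methamphetamine males after abstinence to 128.1 ± 14.7 CPM in methamphetamine males at day 11, with the methamphetamine females at day 11 highest at 161.0 ± 17.9 CPM. Its steps above 44.3 and above 128.1 CPM exceeded the larger SD. For both receptors, the same pair of saline groups stood lowest.

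The ratio of Nr1d1 to Nr1d2 reads in the same library tests whether the paralogs responded alike, and needs no scaling between libraries. Gene length enters every library alike, so ratios were compared between groups only. In females at day 11 the ratio was 0.857, 0.680, 0.685 and 0.756 after saline and 0.567, 0.514, 0.477, 0.413 and 0.508 after methamphetamine. All treated hearts were lower, and the mean log2 ratio differed by -0.59 ± 0.11 (SE; two-sided exact permutation test, p = 0.01587, the smallest these group sizes allow, adjusted p = 0.02116 over 4 comparisons). Within the rise of both receptors, Nr1d1 thus rose less than Nr1d2.

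In males at day 11 the ratio was 0.894, 0.762, 0.921, 0.902 and 1.09 after saline and 0.327, 0.254, 0.784, 0.622 and 0.628 after methamphetamine. The log2 difference was -0.92 ± 0.32 (exact permutation test, p = 0.01587, adjusted p = 0.02116). The groups overlapped by 1 heart, the treated one at 0.784, and replicates 1 and 2 had the lowest ratios of all 47 libraries. The ratio was lower in treated hearts of both sexes at day 11, whether or not the receptors themselves had passed the test. For the male ratio at day 11, too, treatment and rat number series cannot be told apart.

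After abstinence the female ratios were 1.14, 1.31, 1.13, 1.21 and 0.972 after saline and 1.02, 1.18, 1.09, 1.33 and 0.907 after methamphetamine. They overlapped throughout, with a log2 difference of -0.07 ± 0.12 (exact permutation test, p = 0.54762). In males the ratio went up instead, from 0.691, 0.698, 0.526, 0.679 and 0.701 after saline to 1.21, 1.11, 1.01, 1.00 and 0.792 after methamphetamine. The groups did not overlap, and the log2 difference was 0.63 ± 0.13 (exact permutation test, p = 0.00794, the smallest possible, adjusted p = 0.02116).

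Replicate 5 had ratios of 0.614 and 0.611 in the F saline and methamphetamine groups at day 11, and 0.983 and 0.668 in the M groups. After abstinence it had 0.454 and 1.07 in the F groups and 0.408 and 0.717 in the M groups. With these included the log2 differences were -0.48 for F day 11, -0.86 for M day 11 and 0.66 for M abstinence, each with an adjusted p of 0.00577 in the exact permutation test, while F abstinence went from below to above 0 (0.15, exact permutation test, adjusted p = 0.7619). These 3 calls of the ratio held with and without replicate 5.

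**Figure D3:**
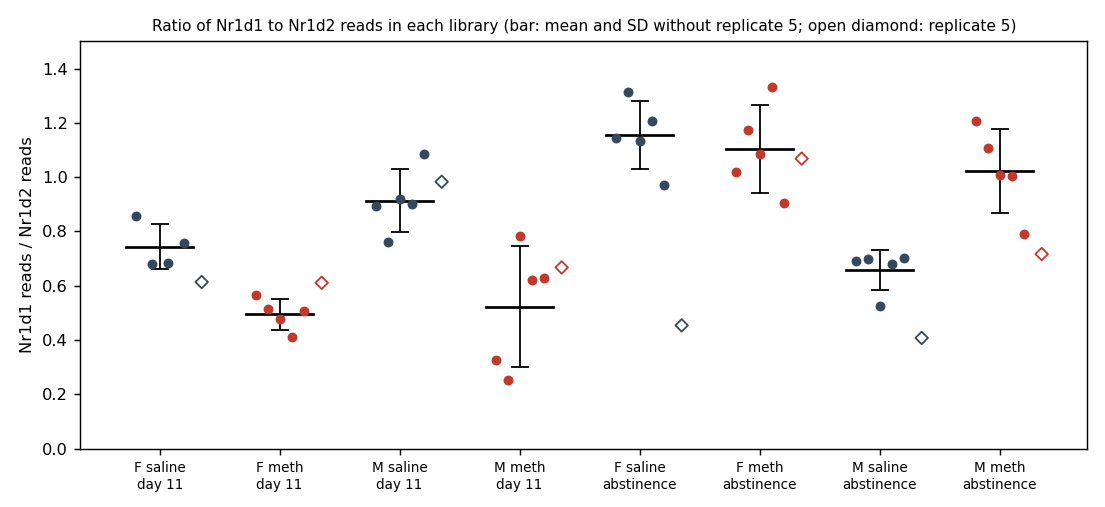
Ratio of Nr1d1 to Nr1d2 reads in each of 47 libraries by group, with the mean and SD of the libraries other than replicate 5 as bars and replicate 5 as open diamonds. Without replicate 5, methamphetamine hearts lie lower than saline hearts in females at day 11 (0.413 to 0.567 against 0.680 to 0.857). They lie higher in males after abstinence (0.792 to 1.21 against 0.526 to 0.701). In males at day 11 the groups overlap (0.254 to 0.784 against 0.762 to 1.09).

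Within a group, hearts with more Nr1d1 also had more Nr1d2. After subtracting group means from log2 CPM, Pearson's r over the 39 libraries was 0.808 and Spearman's rho 0.83 (permutation within groups, p = 1e-05 for each, the smallest that 100000 draws can give). Without the 2 libraries farthest from the median of Nr1d1, r was 0.790. It was 0.740 within day 11 (n = 19) and 0.912 within abstinence (n = 20), the time points being separate sequencing pools, and 0.759 with all 47 libraries. The treated males at day 11, with Nr1d1 from 26.6 to 108.8 CPM over Nr1d2 of 104.9 to 138.8 CPM, had the widest spread of the ratio (SD 0.224, against 0.0567 to 0.161 in the other groups).

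**Figure D4:**
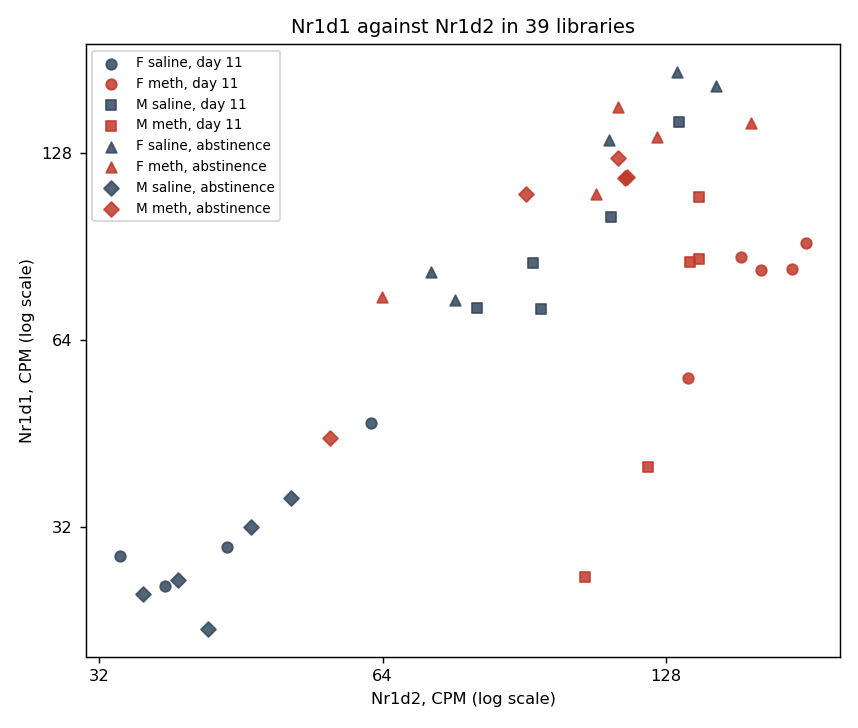
Nr1d1 against Nr1d2, both in CPM on log axes, in the 39 libraries other than replicate 5, by group. Saline hearts and abstinence hearts lie along a band from lower left to upper right, and the 10 methamphetamine hearts at day 11 lie at its right edge or below it, with Nr1d2 of 104.9 to 180.3 CPM.

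Genes with the most similar pattern were ranked by Pearson's r of log2 CPM over the 39 libraries and 14458 genes, as a description in which all points share their libraries and scaling. For Nr1d1 the highest 3 were ENSRNOG00000007152 (0.82, no symbol matched), Dbp (0.79), the D-box activator, and Nr1d2 (0.78). The lowest 2 were Nfil3 (-0.77), the D-box repressor, and Cry1 (-0.72), the PER partner that blocks E-box activation. For Nr1d2 the highest were Dbp (0.96) and Per3 (0.94), a period gene, with Nr1d1 in position 8, and the lowest were Medag (-0.88), Ckap4 (-0.84) and Cdkn1a (-0.82), the cell-cycle inhibitor p21. Against the E-box activators, r with Arntl was -0.80 for Nr1d2 and -0.34 for Nr1d1, with Npas2 -0.74 and -0.25, and with Clock -0.71 and -0.42, and r with Cry1 was -0.40 and -0.72. These values include the differences between group means. With group means subtracted they lay closer together, at -0.72 and -0.50 for Arntl, -0.51 and -0.35 for Npas2, -0.12 and -0.12 for Clock and -0.61 and -0.67 for Cry1. The differences between the paralogs in r were not tested.

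The pathway genes were given by lists of known regulators and targets, of which 11 of 35 genes could be matched to an identifier. Symbols came from the study's tables, which include its lists of genes changed by methamphetamine in these same hearts. A gene called by the study was thus more likely to be matched. The counts called and medians below are therefore descriptions, and their excess over the share of all genes tests nothing. The ROR receptors, the corepressor complex and the genes for heme supply and for REV-ERB protein turnover were among the unmatched and were not analysed here. The same holds for the ventricular markers, so the tissue label could not be checked by its own markers.

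Of the 10 matched genes other than Thra, 5 rose and 4 fell in females at day 11, and Cry1 did not pass (edgeR), where 9.43% of all genes were called. Their median log2 fold change was 0.40, against 0.00 over all genes. Each of the 3 E-box activators fell: Arntl, the gene of BMAL1, from 59.5 to 83.4 CPM after saline to 1.54 to 2.50 CPM after methamphetamine (-5.12 ± 0.15), Npas2, a partner of BMAL1, by 3.01 on the log2 scale, and Clock, the other partner, by 1.03. Both D-box activators rose, Dbp by 3.66 ± 0.16 and Tef by 2.16 ± 0.07. Of the 4 repressors of E-box activation, Per2 (2.75 ± 0.07), Per3 (3.45 ± 0.18) and Cry2 (0.82 ± 0.07) rose, while Cry1 was at -0.02 ± 0.10. The rise of Nr1d1 and Nr1d2 was thus smaller than that of Dbp, Per2, Per3 and Tef, as a description. As labelled, with replicate 5 kept, these 9 genes were still called, with 4.18% of all genes, but Arntl stood at -2.52 ± 0.72 (adjusted p = 0.08532) and Nfil3 at -0.55 ± 0.14 (adjusted p = 0.05202).

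Of the 5 REV-ERB targets given here, 4 fell in the same comparison, namely Arntl, Clock, Npas2 and Nfil3, where 9.43% of all genes were called in either direction. Nfil3 fell by 0.73 on the log2 scale (edgeR, adjusted p = 0.000698), from 25.1 to 34.8 CPM down to 14.3 to 19.5 CPM. Cry1, the other target, at 17.8 to 26.2 and 19.9 to 23.0 CPM, overlapped fully between the groups.

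In males at day 11, 4 of the 10 rose and 2 fell in edgeR, where 6.54% of all genes were called, with a median of 0.47 against -0.02 over all genes. Arntl fell by 1.76 on the log2 scale (± 0.28, adjusted p = 0.01299), from 14.3 to 39.5 CPM down to 4.29 to 9.81 CPM, and Npas2 fell by 1.79. Per2 rose by 1.14 ± 0.20, Tef by 0.91 ± 0.10, Per3 by 0.88 ± 0.18 and Cry2 by 0.53 ± 0.09. Clock (-0.24), Dbp (0.47), Cry1 (0.46) and Nfil3 (-0.07) did not pass. Kept as labelled, replicate 5 changed this, and none of these calls held in edgeR: Arntl stood at -0.70 ± 0.50 (adjusted p = 0.4924), Npas2 at -0.93 ± 0.42 (adjusted p = 0.3299), Per2 at 0.78, Tef at 0.61, Per3 at 0.49 and Cry2 at 0.32 (adjusted p of 0.2767 to 0.4283 for these 4). Replicates 1 and 2, which had the lowest Nr1d1 of the group, had 86.3 and 77.6 CPM of Per3 and 77.1 and 80.4 CPM of Per2, inside or near the range of the other treated males (83.5 to 90.9 and 59.9 to 90.3 CPM). Their Dbp, at 82.5 and 51.6 CPM, was below that of the other 3, at 111.5 to 123.6 CPM.

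After abstinence none of the 10 genes passed in females in edgeR, where 0 of all genes did. Their fold changes ran from -0.44 (Nfil3) to 0.84 (Per2). Within the female groups the hearts low in both receptors were also low in Dbp: saline replicates 1 and 6 had 28.2 and 22.1 CPM against 100.2 to 130.3 CPM in the other 3, and methamphetamine replicate 2 had 27.7 CPM against 45.4 to 198.6 CPM. The same saline hearts had the highest Arntl, at 56.0 and 49.8 CPM against 20.2 to 25.7 CPM. Receptors, Dbp and Arntl thus varied from rat to rat within both treatments.

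In males after abstinence 2 of the 10 rose and 2 fell in edgeR, where 0.103% of all genes were called. Dbp rose by 2.38 ± 0.36 (adjusted p = 0.02933), from 10.4 to 16.6 CPM up to 14.3 to 95.0 CPM, and Per3 rose by 1.58 ± 0.30 (adjusted p = 0.09871). Nfil3 fell by 1.01 on the log2 scale (adjusted p = 0.002219), from 26.4 to 30.3 CPM down to 12.1 to 18.3 CPM, and Cry1 fell by 1.02 (adjusted p = 0.04853). Arntl (-1.01 ± 0.21, adjusted p = 0.1455) and Npas2 (-0.67 ± 0.15, adjusted p = 0.1894) did not pass, nor did Clock, Tef, Per2 and Cry2. Methamphetamine replicate 6, with the low Nr1d1 and Nr1d2, also had low Dbp (14.3 CPM) and Per3 (11.3 CPM) and high Arntl (54.2 CPM against 19.6 to 28.3 CPM in the other 4). With 1 library left out at a time, the edgeR call was lost in 5 of 10 fits for Dbp, 8 for Per3 and 7 for Cry1. The largest adjusted p was 0.154 for Dbp, 0.2901 for Per3 and 0.1868 for Cry1, while that of Nfil3 stayed at or below 0.01942. Per3 also lost its call in 6 of 9 other alternatives. Once replicate 5 was kept as labelled, all 4 calls were lost in edgeR: Dbp stood at 1.07 ± 0.59 and Per3 at 0.24 ± 0.56 (adjusted p = 0.9994 for each), Cry1 at -0.86 ± 0.18 (adjusted p = 0.3806) and Nfil3 at -0.84 ± 0.13 (adjusted p = 0.1032). In DESeq2 on the same libraries Cry1 (adjusted p = 0.01321) and Nfil3 (adjusted p = 1.263e-05) were called.

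In the gene-by-gene values, males after abstinence and females at day 11 had the rise of both receptors and of Dbp and Per3 and the fall of Nfil3 in common, as each comparison's own result. The male calls of Dbp and Per3 depended on the library left out, as given above. The comparisons differed in Per2, at 2.75 ± 0.07 in females at day 11 and 0.68 ± 0.26 in males after abstinence, and in Cry1, at -0.02 ± 0.10 and -1.02 ± 0.17. Arntl, Npas2, Clock, Tef and Cry2 were also called in females at day 11 and not in males after abstinence. These differences across sex and time point were not tested.

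**Figure D5:**
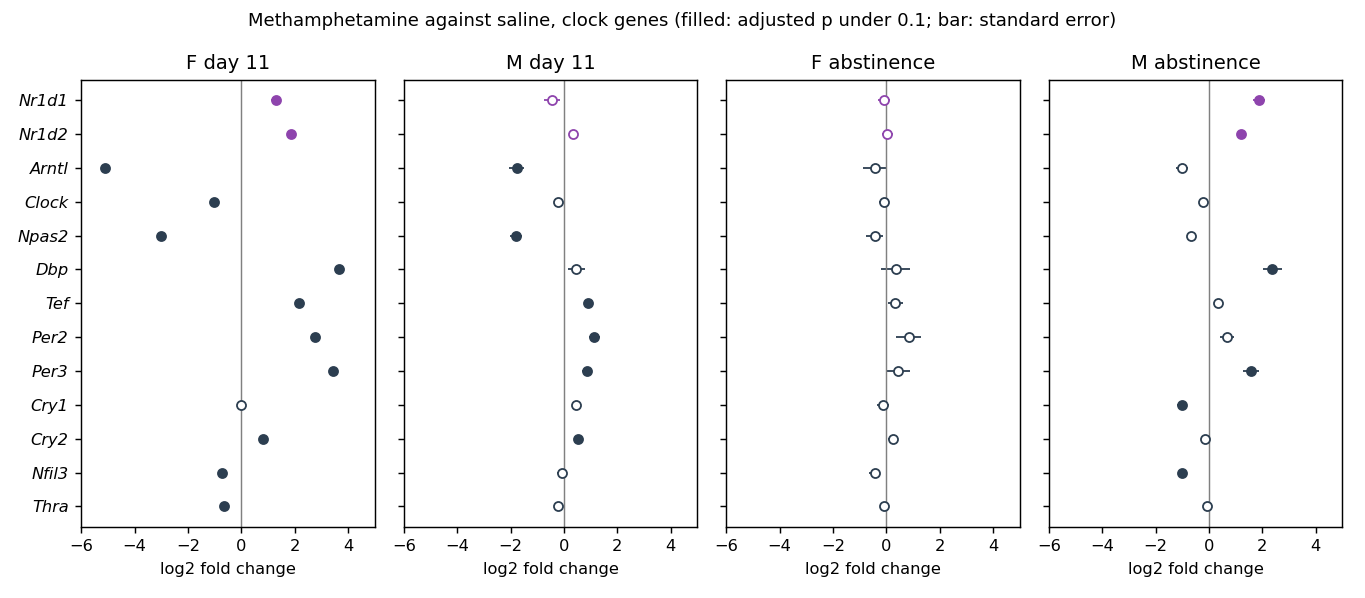
Log2 fold change of methamphetamine against saline with its standard error for Nr1d1 and Nr1d2 (purple) and 11 pathway genes in the 4 comparisons, without replicate 5, filled where the edgeR adjusted p was under 0.1. Both receptors are filled in F day 11 and M abstinence, and open in M day 11 and F abstinence, where Nr1d1 stood at -0.45 and -0.08.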

How the data were processed

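RNA was measured in 47 left ventricular libraries (TruSeq Stranded mRNA kit, paired-end reads). According to the labels and the methods, read trimming by the authors was done in Trimmomatic 0.38, alignment to Rnor_6.0 in HISAT2 2.1.0 and counting over Ensembl genes in GenomicAlignments. The raw read counts deposited by the authors, 32883 genes in 1 table, were used for all main tests. The deposited normalized counts are the raw counts divided by DESeq2 size factors, a signal the authors made with DESeq2 1.20.0, and served 1 alternative.

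Groups came from the sample titles. Replicate 5 of each group was left out of the tests and kept in an alternative. Treatment was tested within sex and time point by edgeR 4.0.16 under R 4.3.3 (filterByExpr, TMM, glmQLFit and glmQLFTest, Benjamini-Hochberg over all genes tested, called under 0.1), with interaction terms for sex and time point. The standard error of a fold change is its size over the square root of F. The ratio used counts plus 0.5 and a two-sided exact permutation test (SciPy 1.17.1), and the within-group correlation 100000 permutations of log2 CPM. Alternatives were DESeq2 1.42.0, limma 3.58.1, size factors, filters, a fit of all groups, a replicate block and leaving out libraries; scripts were tested on simulated data. The main fits treated same-numbered rats as unpaired, and their deviations correlated at -0.53 to 0.47. In saline males between the time points every such correlation was positive, at 0.0692 to 0.47. There the replicate block called 1119 genes in edgeR, against 202 in the main fit. What the replicate number stands for was not tested.

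The receptors, lists and tests were chosen with earlier results of these data known. Named genes were the receptors, the matched list members, the 5 genes with the highest and lowest correlation to each receptor (those with a symbol, and 1 without), and markers that moved with a group. Symbols, taken from the tables of the study, its lists of genes changed by methamphetamine among them, were matched for 328 genes. A further member of the lists is not reported here. Each receptor had 160 or more reads per library. Counting error was not measured apart from the spread between rats, and it weighs more on the ratio than on either level. The lowest ratio of the saline males after abstinence without replicate 5, 0.526 in replicate 3, rests on 160 and 304 reads. Each library came from a separate rat, but the rats were not all unrelated. According to the methods, every litter was spread over all groups and the rats were housed in pairs. Litter and cage are not given in the labels and entered no fit.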

Additional observations from a re-analysis of the deposited data

Results flagged for a closer look

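A single heart stood apart from its group for Nr1d1 in 2 groups, by Dixon's test at its 95% level: F methamphetamine day 11 replicate 4, at 55.7 CPM, and M methamphetamine abstinence replicate 6, at 44.5 CPM. For the ratio of Nr1d1 to Nr1d2, M saline abstinence replicate 3 stood apart at 0.526. Chance sets apart about 1 group in 20. Both receptors kept their calls in edgeR without the first of these hearts or without the second.

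The methamphetamine effect differed between the sexes at day 11 by an interaction term in edgeR, by 1.73 for Nr1d1 (adjusted p = 0.05518) and 1.53 for Nr1d2 (adjusted p = 0.0002837). It differed between the time points in females by 1.36 for Nr1d1 (adjusted p = 0.04839) and 1.83 for Nr1d2 (adjusted p = 0.004427), and in males by -2.32 for Nr1d1 (adjusted p = 0.02785) and -0.88 for Nr1d2 (adjusted p = 0.09413). Where these differences include the male effect at day 11, treatment and rat number series cannot be told apart.

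The saline hearts changed from day 11 to abstinence in opposite directions: by 2.00 in females and -1.71 in males for Nr1d1, and by 1.35 and -1.23 for Nr1d2, on the log2 scale, with no overlap between the time points in either sex. The difference between the sexes was not tested.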

How the results depend on the processing

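The calls of Nr1d1 and Nr1d2 in females at day 11, of both in saline females and of Nr1d1 in saline males between time points, of Nr1d1 between time points in males, and of the ratio in 3 comparisons held under every alternative run. Keeping replicate 5, whose sex genes contradict its label, ended the calls given next. Each library had 160 reads or more per receptor, and the part of depth in these results was not tested.

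With all libraries as labelled, the following calls were lost in edgeR, and in DESeq2 as well where a DESeq2 value is given. For M abstinence they were Nr1d1 (1.51, still called in DESeq2) and Nr1d2 (0.67, DESeq2 0.67). For the sex difference at day 11 they were Nr1d1 (1.62, DESeq2 1.62) and Nr1d2 (1.33). For the time difference they were Nr1d1 (0.91, DESeq2 0.90) and Nr1d2 (1.45) in females, and Nr1d2 (-0.55, DESeq2 -0.55) in males. Nr1d2 in saline males was lost too (-0.90, DESeq2 -0.90). The pathway calls of M day 11 (Arntl, Npas2, Per2, Per3, Tef, Cry2) and M abstinence (Dbp, Per3, Cry1, Nfil3) were lost in edgeR too. In F abstinence, values near 0 changed sign: Nr1d1 to 0.0911 (DESeq2 0.0908) and to 0.12 when blocked by rat number series, and the log2 ratio to 0.15. Signs also changed, with no call, for Cry1 in F day 11 (0.0758, DESeq2 0.085, limma 0.005), Dbp (-0.0346, DESeq2 -0.0293) and Nfil3 (0.13, DESeq2 0.14) in M day 11, and Tef (-0.095, DESeq2 -0.0939), Per2 (-0.17, DESeq2 -0.16) and Thra (0.0115, DESeq2 0.0114) in M abstinence.

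DESeq2 without replicate 5 called Nr1d2 in M day 11 (0.34) and the sex difference after abstinence for Nr1d1 (-1.94, also -1.94 with no low-count filter) and Nr1d2 (-1.16). At a threshold of 0.05, Nr1d1 1.73 (sex, day 11) and Nr1d2 -0.88 (time, males) were lost, the latter also when all 8 groups were fitted together (-0.88) and in limma (-0.82). With the replicate number as a block, Nr1d2 in M day 11 was called (0.34, adjusted p = 0.06733), and the time difference was lost for Nr1d1 in females (1.33, adjusted p = 0.1126) and Nr1d2 in males (-0.87, adjusted p = 0.1344); the block changed no other receptor call.

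Leaving out 1 library at a time gave 0.26 to 0.42 for Nr1d2 in M day 11, -0.21 to 0.0618 and -0.10 to 0.17 for Nr1d1 and Nr1d2 in F abstinence, and 1.14 to 1.36 for Nr1d2 in M abstinence. It gave 1.53 to 1.96 for Nr1d1 (sex, day 11), -2.14 to -1.81 for Nr1d1 (sex, abstinence), 1.23 to 1.596 for Nr1d1 (time, females) and -1.03 to -0.79 for Nr1d2 (time, males). Other signs that changed: Cry1 -0.10 to 0.0824 (F day 11) and -0.27 to 0.0266 (F abstinence), Nfil3 -0.19 to 0.0545 (M day 11) and Clock -0.21 to 0.0317 (F abstinence).

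The count of genes called ranged over the alternatives from 581 to 1321 against 1319 (F day 11), 0 to 1500 against 908 (M day 11), 0 to 163 against 0 (F abstinence) and 0 to 68 against 14 (M abstinence), and over single left-out libraries from 153 to 1442 (M day 11) and 2 to 62 (M abstinence). For the sex difference it ranged from 17 to 188 against 114 (day 11) and 0 to 30 against 0 (abstinence), for the time difference from 33 to 395 against 175 (females) and 21 to 266 against 87 (males), and for saline hearts from 75 to 594 against 327 (females) and 12 to 1119 against 202 (males). The causes were not tested.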
